A study of Homo sapiens with 9 samples.

Results

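Cholinesterases break down acetylcholine, and the genes described here are the 2 cholinesterases and 5 genes whose products hold these enzymes in place or make and carry acetylcholine. The members were ACHE, BCHE, COLQ, PRIMA1, CHAT, SLC18A3 and SLC5A7, and every probe on the array with one of these gene names was taken, without regard to its values. This gave 8 probes of 7 genes among the 42405 probes on the array, and 7 of its 34623 gene names. RNA came from NT2 cells, a single line cloned from a human teratocarcinoma that turns towards neuron-like cells in retinoic acid. All cultures, controls included, received 10 μM retinoic acid for 4 days (96 h). The treated cultures also received 1 μM paraoxon or 5 μM mipafox during that time, and control cultures received neither. There were 9 one-colour arrays, 3 for each treatment with the letters A, B and C. Slide 1 carried mipafox A beside the control arrays, and slide 2 carried mipafox B and C beside the paraoxon arrays. Paraoxon and control therefore shared no slide, and only the mipafox arrays were on both. In a fit with slide as a block, both comparisons with control rest on mipafox A, the only exposed array on slide 1. The mipafox value of that fit is mipafox A minus the control mean. The arrays of a treatment are named biological replicates in the labels and technical replicates in the study's methods, so p-values here measure only the spread between these samples, which may be technical.

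Acetylcholinesterase (ACHE) and butyrylcholinesterase (BCHE) hydrolyse acetylcholine with a serine in their active site. Organophosphorus compounds bind that serine and block the enzyme, and paraoxon, a diethyl phosphate ester, is a classical inhibitor of cholinesterases. Mipafox is a phosphorodiamidic fluoride used as a reference compound because it also blocks neuropathy target esterase. In cholinergic neurons the vesicle transporter (SLC18A3) loads acetylcholine that choline acetyltransferase (CHAT) has made from choline, and the choline transporter (SLC5A7) brings choline back into the nerve ending. Arrays measure RNA and not enzyme activity, so the inhibition itself is not seen in these values.

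Sequences are shown for the 4 probes that lie in the coding part of their transcripts, since the probe decides which RNA was measured. Each is 60 bases long and is written 5′ to 3′ in lower case on the strand of the gene. Capitals mark the stop codon in the SLC5A7 probe, which ends with the coding sequence. Coordinates are those of the array's own annotation, on hg19.
ACHE A_24_P60845 (chr7:100490007-100490066, minus strand): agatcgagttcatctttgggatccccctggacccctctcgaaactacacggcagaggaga
PRIMA1 A_23_P502808 (chr14:94203591-94203650, minus strand): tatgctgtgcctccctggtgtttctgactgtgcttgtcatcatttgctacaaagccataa
CHAT A_23_P46894 (chr10:50857655-50859961, plus strand): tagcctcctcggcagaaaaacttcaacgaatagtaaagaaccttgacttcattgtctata
SLC5A7 A_33_P3299339 (chr2:108627258-108627317, plus strand): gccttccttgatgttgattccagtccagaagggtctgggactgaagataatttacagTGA
The genomic interval of the CHAT probe is 2307 bases long for 60 bases of probe, because the probe crosses an intron. The other probes were BCHE A_23_P212050 (chr3:165490819-165490878, minus strand), COLQ A_23_P212126 (chr3:15491985-15492044, minus strand), SLC18A3 A_33_P3270317 (chr10:50820656-50820715, plus strand) and a second PRIMA1 probe, A_32_P15544 (chr14:94185297-94185356, minus strand). SLC18A3 lies within the CHAT gene in RefSeq (GRCh38.p14). On the array's hg19 coordinates 36940 bases separate the end of its probe from the start of the CHAT probe, and the probes lie on the same strand.

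Signal is given as log2 of the processed intensity minus log2 of the array's 75th percentile, so that -3 stands for a signal 3 doublings below that percentile. The 75th percentile itself ranged from 802 to 1590 intensity units over the 9 arrays, and 65.7% to 73.6% of probes were well above background on an array. Of the 8 member probes, 7 probes of 6 genes stood well above background throughout at least 1 treatment, the condition for testing, which 29134 probes met. SLC5A7 was not. Values of single arrays are given in the order A, B, C. Levels are compared within a probe only, since probes differ in how well they bind. Because RNA came from whole cultures, fewer cells of a type and less RNA per cell cannot be told apart.

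Markers of the cells' label were detected, but genes of other tissues also passed the background test, so it cannot tell the label from these. Each gene was counted by its best probe. All 9 embryonal carcinoma genes and all 7 retinoic acid response genes were well above background on every array, as were 4 of 5 neural progenitor genes and 5 of 7 neuron genes. SOX1 passed on 1 array, STMN2 on 2 and SYP on 6. GFAP of glia, TTR of liver and HBB of blood were not above background on any array, while 3 of 5 glia genes, 2 of 6 liver and endoderm genes and 3 of 4 blood genes passed on all 9. The summed signal of the 7 neuron genes, in multiples of the 75th percentile, was 13.4 to 16.4 in control, 12.2 to 14.2 with paraoxon and 15.1 to 15.9 with mipafox. That of the 6 skeletal muscle genes, a tissue that uses ACHE and COLQ at its synapses, was 0.518 to 0.815, 0.563 to 0.995 and 0.569 to 0.888, and all 6 passed the background test on every array at these low levels. The sum of the 5 neural progenitor genes was 75 to 82.4 in control, 63.6 to 73.7 with paraoxon and 65 to 70.2 with mipafox. Neither compound overlapped control. Among single tested probes, 11.1% with paraoxon and 6.46% with mipafox had all exposed arrays below all control arrays. For the 5 glia genes the sum was 0.362 to 0.396, 0.375 to 0.421 and 0.411 to 0.437. Here mipafox was above control without overlap, an order found for 5.32% of single tested probes. Each sum adds the linear signal of all probes of a list, so bright probes weigh most. Sums of all other marker lists overlapped control with both compounds. The part of these marker levels in the results below was not tested.

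In limma over all 9 arrays none of the 7 tested member probes was called in either comparison, where a call needed a log2 fold change beyond 1 together with an adjusted p under 0.05. Of all 29134 probes 0% were called with paraoxon and 0% with mipafox, and the smallest adjusted p over all of them was 0.0608 and 0.156. At an unadjusted p under 0.05 and with no fold limit, 3884 probes passed with paraoxon and 2027 with mipafox. One member probe, PRIMA1 A_23_P502808, passed this looser limit in both comparisons, on the higher side. That side held 7.31% of all tested probes with paraoxon and 2.96% with mipafox. The lower side held 6.02% and 4%, and no member probe. The comparisons share the 3 control arrays, and the compounds were given at different doses, so their values stand side by side and were not set against each other.

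**Figure D1:**
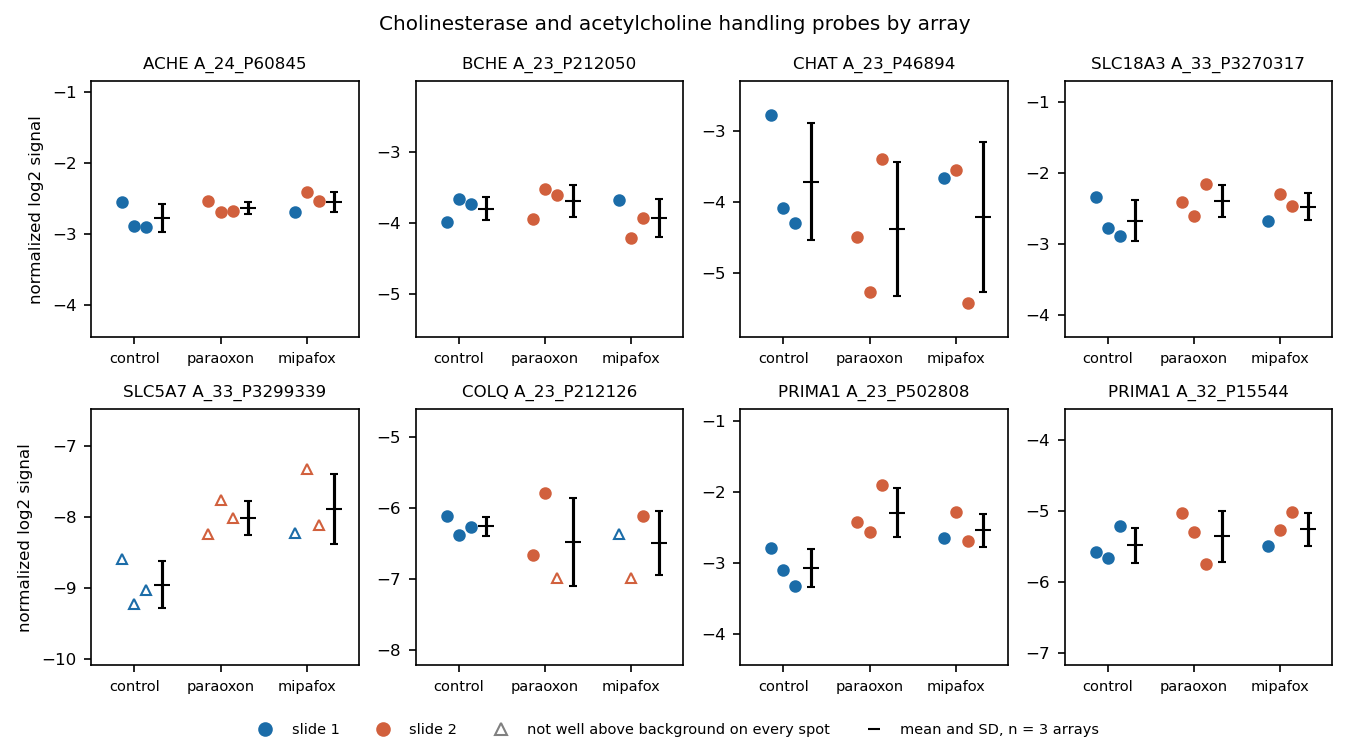
Normalized log2 signal (log2 of processed intensity minus that of the array's 75th percentile) of the 8 member probes on each of the 9 arrays, grouped by treatment, with colours for slides, open triangles where not every spot was well above background, and bars for the mean and SD of 3 arrays. PRIMA1 A_23_P502808 is higher on all exposed arrays than on every control array, CHAT spreads over 2.65 log2 units, and SLC5A7 lies at background on all arrays.

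ACHE encodes the enzyme that ends cholinergic transmission, and its RNA level was steady. The normalized log2 signal of its probe was -2.55, -2.89 and -2.89 in the control arrays. It was -2.53, -2.68 and -2.67 in the paraoxon arrays, and -2.69, -2.41 and -2.53 in the mipafox arrays. Both treatments overlapped the control arrays, although paraoxon A, mipafox B and mipafox C were above all 3 of them. The means were -2.78 ± 0.20 in control (SD, n = 3 arrays, for each treatment), -2.63 ± 0.09 in paraoxon cultures and -2.54 ± 0.14 in mipafox cultures. Paraoxon gave a log2 fold change of 0.15 ± 0.15 (SE), with a limma adjusted p of 0.747. The 95% interval, without adjustment, ran from 0.879-fold to 1.4-fold. With mipafox it was 0.23 ± 0.15 (SE), with a limma adjusted p of 0.836 and an interval from 0.931-fold to 1.48-fold. A change of 2-fold lay outside both intervals. On slide 1 mipafox A was 0.09 above the control mean, and on slide 2 paraoxon was 0.16 below mipafox on the log2 scale. With slide as a block the paraoxon value turned to -0.07. ACHE was the steadiest member within treatments, with a pooled SD of 0.15 (log2) against a median of 0.25 over all tested probes, and its 2 spots differed by a median of 0.04 on an array.

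BCHE encodes the related enzyme of plasma, liver and glia, which also splits larger choline esters. Its probe gave a normalized log2 signal of -3.98, -3.66 and -3.74 in the control arrays and -3.94, -3.51 and -3.61 in the paraoxon arrays. In the mipafox arrays it was -3.67, -4.20 and -3.93. The treatments overlapped, with 2 paraoxon arrays above all control arrays and mipafox B below all of them. Means were -3.79 ± 0.17 in control (SD, n = 3 each), -3.69 ± 0.23 in paraoxon cultures and -3.93 ± 0.27 in mipafox cultures. Paraoxon differed from control by 0.11 ± 0.19 (SE) on the log2 scale, with a limma adjusted p of 0.874 and an interval from 0.804-fold to 1.44-fold. Mipafox differed by -0.14 ± 0.19 (SE), with a limma adjusted p of 0.953 and an interval from 0.679-fold to 1.21-fold. Within slide 2 paraoxon was 0.38 above mipafox, and mipafox itself was 0.40 lower on slide 2 than on slide 1. With slide as a block the values were 0.50 for paraoxon and 0.13 for mipafox, the latter with its sign turned. Leaving out 1 array moved the paraoxon value between 0.012 and 0.234. Over the 9 arrays ACHE and BCHE had a Pearson correlation of -0.74 and a Spearman correlation of -0.65, given as a description over arrays that share treatments and slides.

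PRIMA1 and COLQ anchor cholinesterase in different places. PRIMA1 encodes the membrane protein that holds tetramers of the enzyme on neurons, and COLQ the collagen tail that holds them in the matrix of the neuromuscular synapse. The PRIMA1 probe A_23_P502808 lies in the coding sequence, in the stretch shown above, and was the brighter of the gene's 2 probes. Its normalized log2 signal was -2.79, -3.10 and -3.33 in the control arrays. It was -2.42, -2.56 and -1.91 in the paraoxon arrays, and -2.65, -2.28 and -2.70 in the mipafox arrays. All 6 exposed arrays were above all 3 control arrays. Among the probes with a value on all 9 arrays, 12.4% had all paraoxon arrays above all control arrays, and 5.32% had this with mipafox. The opposite order, all exposed arrays below all control arrays, was found for 11.1% and 6.46% of probes and for 0 member probes. The means were -3.07 ± 0.27 in control (SD, n = 3 each), -2.30 ± 0.34 in paraoxon cultures and -2.54 ± 0.23 in mipafox cultures, and the mean processed intensities were 148.6, 240.0 and 185.0 units.

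The log2 fold change of this PRIMA1 probe was 0.77 ± 0.22 (SE) with paraoxon, or 1.71-fold with a 95% interval of 1.21 to 2.41. Its unadjusted p was 0.00617 and its limma adjusted p 0.167, so it did not pass the test over all probes. With mipafox it was 0.53 ± 0.22 (SE), or 1.44-fold with an interval of 1.02 to 2.03, and the unadjusted p of 0.0385 became 0.691 after adjustment in limma. On slide 1 alone mipafox A was 0.42 above the control mean, whose SD was 0.27. Mipafox B and C on slide 2 were on average 0.16 above mipafox A, and paraoxon was 0.19 above them. With slide as a block the log2 fold change was 0.61 for paraoxon and 0.42 for mipafox, with limma adjusted p-values of 0.661 and 0.855. Both values rest on mipafox A as the link to control, so they are not a second check. The probe was printed as 1 spot on each array, so its spot error is not known.

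The other PRIMA1 probe, A_32_P15544, lies further along the transcript, starting at base 2937 against base 337, and was dim. It read -5.58, -5.65 and -5.20 in the control arrays and -5.02, -5.29 and -5.74 in the paraoxon arrays. In the mipafox arrays it read -5.48, -5.26 and -5.01. These arrays overlapped. Log2 fold changes were 0.13 ± 0.22 (SE) for paraoxon and 0.23 ± 0.22 (SE) for mipafox, with limma adjusted p-values of 0.871 and 0.920. Across the 9 arrays the 2 PRIMA1 probes had a Pearson correlation of -0.14, and the second probe did not separate exposed from control arrays. The mean spot signal before background subtraction had a median of 67.3 units at the second probe against 252.6 at the first, with local backgrounds of 26 to 37 and 30 to 39 units.

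COLQ was near the limit of detection. Its probe read -6.12, -6.39 and -6.27 in the control arrays. It read -6.67, -5.80 and -7.00 in the paraoxon arrays, and -6.37, -6.99 and -6.12 in the mipafox arrays. Both spots were well above background on all 3 control arrays, on 2 paraoxon arrays and on 1 mipafox array. It met the condition for testing through the control arrays, where its mean was highest, and the differences below are against arrays of which some were not above background. The control arrays lay close together and within the range of each exposed treatment. Paraoxon cultures differed from control by -0.22 ± 0.32 (SE) on the log2 scale, with a limma adjusted p of 0.835 and an interval of 0.522-fold to 1.4-fold. With mipafox it was -0.23 ± 0.32 (SE), with a limma adjusted p of 0.955 and an interval of 0.520-fold to 1.39-fold. Within slide 1 mipafox A was 0.11 below the control mean, and within slide 2 paraoxon was 0.07 above mipafox.

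CHAT, the enzyme that makes acetylcholine, varied more between arrays of one treatment than between treatments. Its probe read -2.77, -4.09 and -4.29 in the control arrays. It read -4.50, -5.26 and -3.39 in the paraoxon arrays, and -3.66, -3.55 and -5.43 in the mipafox arrays. Control A was the highest array and mipafox C the lowest, 2.65 apart on the log2 scale. The pooled SD within treatments was 0.95 (log2), and 98.2% of all tested probes had a smaller one. The 2 spots of the probe differed by a median of 0.46 and at most 0.64 on an array, less than the arrays differed. Means were -3.72 ± 0.82 in control (SD, n = 3 each), -4.38 ± 0.94 in paraoxon cultures and -4.21 ± 1.05 in mipafox cultures. For paraoxon the log2 fold change was -0.67 ± 0.63 (SE), with a limma adjusted p of 0.727 and an interval from 0.235-fold to 1.69-fold. With mipafox it was -0.49 ± 0.63 (SE), with a limma adjusted p of 0.949 and an interval from 0.265-fold to 1.91-fold. The intervals are wide enough to hold 1.5-fold higher and 2-fold lower levels. Leaving out 1 array moved the paraoxon value between -1.165 (without paraoxon C) and -0.195 (without control A). With slide as a block the values were 0.16 and 0.06, both with the sign turned.

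The CHAT signal moved with that of histone probes, a comparison chosen after the values were seen and given as a description. Histone genes encode the proteins that package DNA, and the median of their 74 tested probes was taken on each array, each probe relative to its mean over the 9 arrays. It was 1.1, 0.27 and -0.32 in the control arrays, where CHAT stood at 1.33, 0.02 and -0.19 from its own mean. In the paraoxon arrays the histone median was -0.14, -1.05 and 0.40 and CHAT was at -0.40, -1.16 and 0.72. In the mipafox arrays the values were 0.82, 0.19 and -1.28 for histones and 0.45, 0.56 and -1.32 for CHAT. The order of the arrays was the same for both in control and paraoxon cultures, while among mipafox arrays A had the most histone signal and B the most CHAT signal. Pearson's correlation over the 9 arrays was 0.95 and Spearman's 0.90, and Pearson's was 0.86 without the 2 arrays farthest from the median, 0.90 on slide 1 and 0.97 on slide 2. Over the 9 arrays the other tested members had Pearson correlations with the histone median between -0.69 (PRIMA1 A_32_P15544) and 0.21 (SLC18A3). Within a slide they went both ways. PRIMA1 A_23_P502808 had 0.93 over the 4 arrays of slide 1 and 0.90 over the 5 of slide 2, SLC18A3 had 0.91 and 0.86, and ACHE had 0.92 and 0.20. COLQ had 0.37 and -0.94, PRIMA1 A_32_P15544 had -0.66 and -0.59, and BCHE had -0.52 and -0.23. No test was run on these correlations, and the part of the histone level in the member values was not tested. How many of all tested probes follow the histone median as closely as CHAT is not given here.

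**Figure D2:**
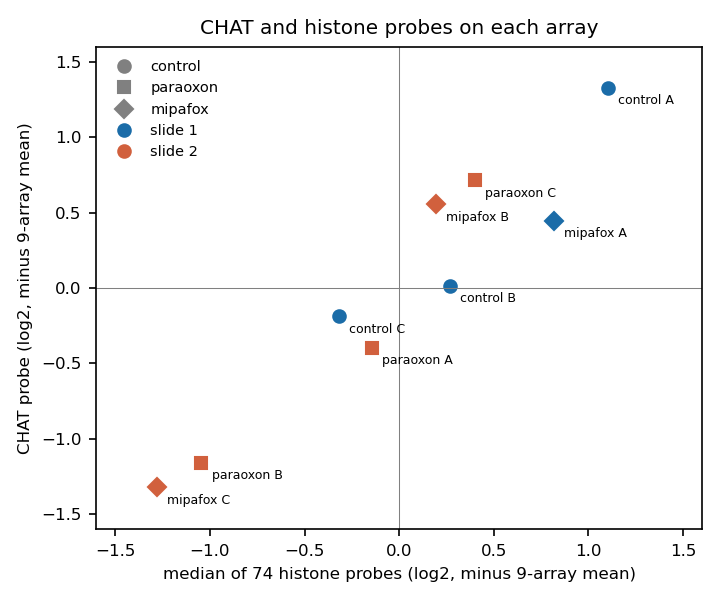
Signal of the CHAT probe against the median of 74 histone probes on each of the 9 arrays, both as log2 difference from the 9-array mean, with shapes for treatments and colours for slides. Control A is at the upper end and mipafox C and paraoxon B at the lower end, and in each treatment the array with the least histone signal has the least CHAT signal.

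SLC18A3, the vesicle transporter encoded within the CHAT gene, varied less, with a pooled SD of 0.24 (log2). Its probe read -2.35, -2.78 and -2.90 in the control arrays. It read -2.41, -2.61 and -2.16 in the paraoxon arrays, and -2.67, -2.30 and -2.47 in the mipafox arrays. The treatments overlapped, with paraoxon C and mipafox B alone above all control arrays. The means were -2.67 ± 0.29 in control (SD, n = 3 each), -2.40 ± 0.23 in paraoxon cultures and -2.48 ± 0.19 in mipafox cultures. For paraoxon the log2 fold change was 0.28 ± 0.19 (SE), with a limma adjusted p of 0.603 and an interval from 0.897-fold to 1.64-fold. With mipafox it was 0.19 ± 0.19 (SE), with a limma adjusted p of 0.926 and an interval from 0.845-fold to 1.55-fold. Within slide 1 mipafox A was at the control mean, and within slide 2 paraoxon was 0.01 below mipafox, while mipafox was 0.29 higher on slide 2 than on slide 1. Leaving out 1 array moved the paraoxon value between 0.161 and 0.444. Over the 9 arrays SLC18A3 had a Pearson correlation of 0.36 with CHAT and of 0.87 with PRIMA1 A_23_P502808.

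SLC5A7, the high-affinity choline transporter of cholinergic nerve endings, was not well above background on any of the 9 arrays. Its probe covers the end of the coding sequence shown above. The mean spot signal ranged from 35.1 to 49.3 units against local backgrounds of 27 to 38 units, and the mean processed signal was 2.53 units in control, 4.66 with paraoxon and 4.77 with mipafox. Its log2 values were -8.59, -9.23 and -9.03 in control, -8.24, -7.77 and -8.02 in paraoxon cultures and -8.23, -7.32 and -8.11 in mipafox cultures. The exposed arrays thus all read above the control arrays, an order found for 12.4% of tested probes with paraoxon and 5.32% with mipafox. The 2 spots of the SLC5A7 probe differed by up to 1.53 (log2) on an array. Every reading was below the detection limit, so no fold change is given and the probe was not tested.

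**Figure D3:**
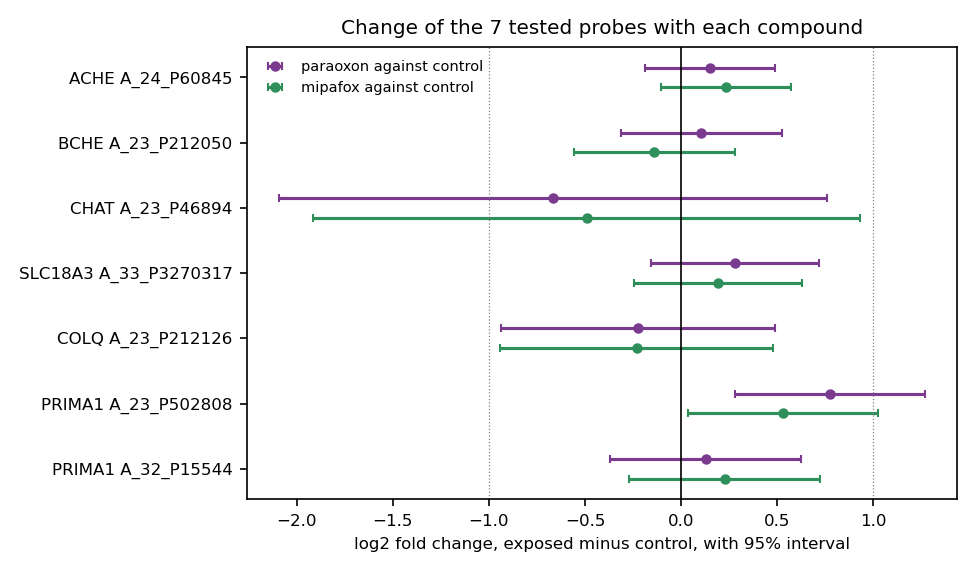
Log2 fold change of the 7 tested member probes, exposed minus control, for paraoxon and mipafox with unadjusted 95% intervals from limma, and dotted lines at the fold limit of 1. The interval of PRIMA1 A_23_P502808 leaves out 0 for both compounds, all others include it, and those of CHAT are the widest.

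The genes around this pathway were read from 5 lists with 40 tested genes and 52 tested probes. In limma 0 of the 52 passed an adjusted p under 0.05 with either compound, and the smallest adjusted p was 0.0974 with paraoxon and 0.302 with mipafox. At an unadjusted p under 0.05, 1 was higher and 6 were lower with paraoxon, and 2 were higher and 4 lower with mipafox. Over all tested probes these shares were 7.31% and 6.02% with paraoxon and 2.96% and 4% with mipafox. CHRM1, among the 6 lower with paraoxon, met the condition for testing through the control arrays and was well above background on no paraoxon array. The median log2 fold change over all tested probes was 0.01 with paraoxon and 0.00 with mipafox, and the list medians are set beside these.

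The choline supply list holds enzymes and carriers that bring choline into cells and build it into phospholipids, and 17 of its 18 genes were tested with 23 probes. Its median log2 fold change was -0.17 with paraoxon and 0.00 with mipafox, and at an unadjusted p 4 and 3 probes were lower, where 6.02% and 4% of all tested probes were, and 0 higher. PCYT1B makes the activated choline of the CDP-choline pathway, and its probe A_23_P148422 read -2.78, -2.93 and -3.05 in the control arrays. It read -3.49, -3.69 and -3.48 in the paraoxon arrays and -3.69, -3.51 and -3.56 in the mipafox arrays, below the control arrays on every exposed array. That order was found for 11.1% of probes with paraoxon and 6.46% with mipafox, and the gene is named because it passed the unadjusted limit. The log2 fold change was -0.63 ± 0.14 (SE) with paraoxon and -0.66 ± 0.14 (SE) with mipafox, with limma adjusted p-values of 0.0974 and 0.302. On slide 1 mipafox A was 0.77 below the control mean. The gene's brighter probe, A_24_P941353, gave 0.10 and 0.24 instead.

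CEPT1, which joins the activated choline to lipid, read -2.18, -2.03 and -2.11 in the control arrays and -2.47, -2.60 and -2.91 in the paraoxon arrays. It read -2.58, -2.77 and -2.96 in the mipafox arrays, again with no overlap, as for 11.1% of probes with paraoxon and 6.46% with mipafox. Its log2 fold change was -0.55 ± 0.16 (SE) and -0.67 ± 0.16 (SE), with limma adjusted p-values of 0.178 and 0.399, and with slide as a block -0.27 and -0.48. One probe of the choline carrier SLC44A1, A_23_P411806, had log2 fold changes of -0.81 and -0.57 with limma adjusted p-values of 0.160 and 0.666, and -1.32 and -0.91 with slide as a block. Mipafox C, at -1.77, lay within the control arrays at -1.59 to -1.77. The brighter probe of that gene, A_23_P216630, had 0.10 and -0.13. One probe of PCYT2, which serves the parallel ethanolamine pathway, had -0.58 with paraoxon at a limma adjusted p of 0.236. The gene's brighter probe, A_33_P3394809, had -0.23 with paraoxon, and its dimmer probe A_33_P3277259 had 0.21. Bright members of the list such as CHKA, PLD2 and PEMT had log2 fold changes between -0.17 and 0.11 over both compounds.

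Among transcription factors of cholinergic neurons 6 of 10 were tested, and the median of their log2 fold changes was 0.18 for paraoxon and 0.22 for mipafox. PHOX2A, a factor of autonomic neurons, was dim and read -6.84, -7.17 and -6.64 in the control arrays. It read -5.54, -5.15 and -5.74 in the paraoxon arrays and -6.24, -5.14 and -5.12 in the mipafox arrays. The PHOX2A probe was well above background on 3 control, 3 paraoxon and 2 mipafox arrays. Its log2 fold change was 1.41 ± 0.31 (SE) and 1.38 ± 0.31 (SE), with limma adjusted p-values of 0.10 and 0.344. Mipafox itself was 1.11 higher on slide 2 than on slide 1, and with slide as a block the values were 0.30 and 0.65. GBX2, a factor of the border between midbrain and hindbrain, had 0.16 and 0.33 with limma adjusted p-values of 0.680 and 0.685, and -0.02 for paraoxon with slide as a block. LHX3, ISL1 and MNX1 did not pass the unadjusted limit with either compound.

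Muscarinic receptors carry the acetylcholine signal through G proteins, and 4 of 5 genes were tested, with median log2 fold changes of -0.26 with paraoxon and 0.00 with mipafox. CHRM2 and CHRM3 were the bright ones, at control means of -0.91 and -0.57, and their log2 fold changes with paraoxon were -0.16 and -0.36 with limma adjusted p-values of 0.694 and 0.487. CHRM1 read -6.16, -6.93 and -6.07 in control and -7.12, -6.97 and -7.01 in paraoxon cultures. CHRM1 was well above background on 3 control, 2 mipafox and 0 paraoxon arrays, so with paraoxon no fold change is given. The list median of -0.26 with paraoxon includes it. With mipafox its log2 fold change was 0.02.

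Proteins with the cholinesterase fold but other roles, such as the neuroligins that join synapses, had 5 of 6 genes tested and medians of -0.14 and 0.10. NLGN4X read 0.86, 0.75 and 0.62 in the control arrays. It read 0.11, 0.12 and 0.01 in the paraoxon arrays and 0.57, 0.08 and -0.19 in the mipafox arrays. All exposed arrays lay below the control arrays, as for 11.1% of probes with paraoxon and 6.46% with mipafox. Log2 fold changes were -0.66 and -0.59, with limma adjusted p-values of 0.175 and 0.552. Mipafox A on slide 1 was 0.17 below the control mean, and mipafox was 0.63 lower on slide 2, so that with slide as a block the values were -0.04 and -0.17. The 8 genes of the matrix and receptor complex at the neuromuscular synapse, AGRN, LRP4, MUSK, RAPSN, DOK7, HSPG2, LAMB2 and DAG1, were all tested. Their 12 probes had medians of 0.06 and 0.04, and none passed the unadjusted limit.

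The probes most like each member over the 9 arrays were named by Pearson correlation among 18129 tested probes with a RefSeq symbol, without a test, since the highest values are picked from so many. ACHE was most like HDAC10 (0.97), CALML6 (0.95) and DDX11 (0.95), and BCHE most like MYL12B (0.98), MGAT2 (0.96) and CCP110 (0.95). The CHAT probe was most like SLC26A1 (0.99), PRRC2B (0.98) and CP (0.98), and SLC18A3 most like TRIM3 (0.98), EYS (0.98) and SLC6A10P (0.98). COLQ was most like CCDC159 (0.94), PUS10 (0.93) and AKR7A2P1 (0.93). PRIMA1 A_23_P502808 was most like TNK1 (0.99), KRTAP9-1 (0.99) and NTRK2, a receptor for brain-derived neurotrophic factor (0.99).

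**Figure D4:**
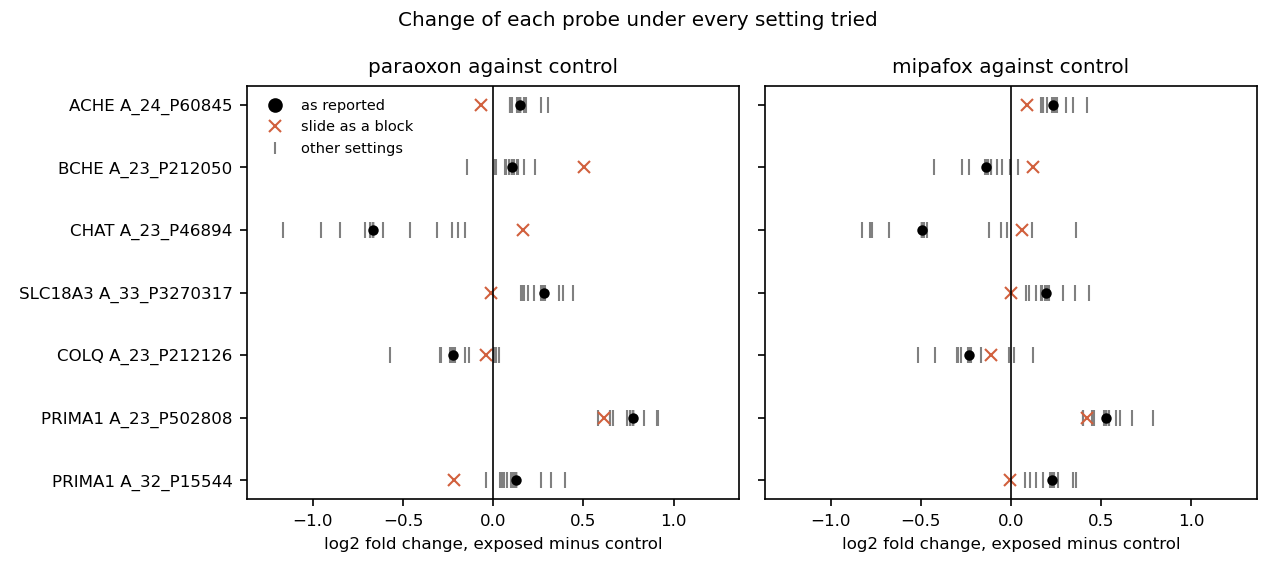
Log2 fold change of each tested member probe, exposed minus control, as reported (filled circle), with slide as a block (cross) and under the other processing settings (ticks). PRIMA1 A_23_P502808 stays above 0 under all of them, from 0.58 to 0.92 with paraoxon and 0.40 to 0.79 with mipafox, while CHAT crosses 0 with both compounds.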

How the data were processed

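The authors deposited for each array the Agilent Feature Extraction 10.5.1.1 output, with processed, mean and background intensity (linear), as well as log2 values. The study's methods name the Agi4 × 44PreProcess package and its manual for normalization and filtering, without saying which of its options were used. The log2 values served only as an alternative. Here log2 of the processed intensity was scaled by subtracting the 75th percentile of the array. Control and outlier spots were dropped before replicate spots were averaged. A probe was tested if all arrays of some treatment had it well above background and each treatment had 2 or more values. The tests used limma 3.58.1 (R 4.3.3), fitting a mean for each treatment to the 9 arrays, and p-values were adjusted by Benjamini-Hochberg. Precision is limited by the number of arrays. The fit was tested on simulated data.

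The text names all probes of the members, the 3 probes most like each, and genes of 5 lists that passed an unadjusted p under 0.05, with some of the brightest. Members and lists were chosen with earlier results of these data known. Alternatives covered normalization, background correction, the authors' values, filters, slide or replicate letter as a block, arrays in the fit, array weights, the variance model, outlier flags, threshold and each array left out. Protein sequences were not used here. The values of 1 gene of the lists are not reported here. Figures were drawn with matplotlib 3.10.9.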

Additional observations from a re-analysis of the deposited data

How the results depend on the processing

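None of the 7 member probes was called under any of the alternatives tried (22, or 21 for COLQ). Of 306 values 138 equalled the reported one to 3 decimals, most under settings that alter the test but not the estimate, and 17 of the other 168 turned direction. The mipafox value of SLC18A3 was 0 with slide as a block. PRIMA1 A_23_P502808 kept it throughout. With array weights its limma adjusted p was 0.00838 with paraoxon and 0.0095 with mipafox, against ranges over the alternatives of 0.00838 to 0.661 and 0.0095 to 1. Array weights also brought mipafox values of ACHE (0.42, limma adjusted p 0.0197, range 0.0197 to 1) and SLC18A3 (0.43, 0.0352, range 0.0352 to 1) under 0.05, all short of the fold limit. Under that setting 671 of all tested probes were called with paraoxon and 800 with mipafox. The share of all probes passing an adjusted p alone is not given here. Weights were 4.372 for control B, 3.326 for paraoxon A and 3.049 for mipafox B, and 0.285 to 1.797 for the other arrays. The direction turned with normexp correction for COLQ (0.015 with paraoxon, 0.121 with mipafox) and BCHE (0.038 with mipafox), and with the authors' values for COLQ (0.004 with paraoxon). It turned with slide as a block for ACHE (-0.067), CHAT (0.163), SLC18A3 (-0.011) and PRIMA1 A_32_P15544 (-0.220) with paraoxon, and for BCHE (0.125), CHAT (0.061) and PRIMA1 A_32_P15544 (-0.005) with mipafox. With array weights it turned for BCHE with paraoxon (-0.143) and CHAT with mipafox (0.364). With each array left out in turn, PRIMA1 A_32_P15544 ranged from -0.039 (without paraoxon A) to 0.322 and COLQ from -0.570 to 0.030 (without paraoxon C) with paraoxon, and COLQ from -0.419 to 0.016 (without mipafox B) and CHAT from -0.823 to 0.116 (without mipafox C) with mipafox. The cause was not tested.

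Counts over all probes moved more. For paraoxon 1 probe was called with slide as a block, 276 with the 2 treatments alone, 671 with array weights and 638 at an unadjusted p. Leaving out 1 array gave 0 to 276, with 276 without mipafox A, 93 without mipafox B and 1 without mipafox C. For mipafox the counts were 6 with slide as a block, 800 with array weights and 246 at an unadjusted p, and leaving out 1 array gave 0 to 76, with 76 without mipafox A. With the replicate letter as a block 0 probes were called in either comparison, and PRIMA1 A_23_P502808 kept 0.77 with paraoxon at a limma adjusted p of 0.261. Between treatments, correlations of arrays by their deviations from probe means ran from -0.597 to 0.567 for the same letter. For different letters they ran from -0.587 to 0.661. These are not correlations of the arrays' whole signal. Whether the letters mark cultures set up together was not tested. Signal over background limits COLQ, SLC5A7 and PRIMA1 A_32_P15544 most.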
